A study of Macaca mulatta with 80 samples.

Results

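The dentate gyrus (DG) of the newborn rhesus macaque was compared with that of animals aged 6 months. The comparison used 8 of the 80 arrays of the series, taken by their region and age labels alone: the 4 DG arrays labelled newborn, with the numbers 13 to 16, and the 4 labelled as 6 months, with the numbers 9 to 12. All steps below are 6 months minus newborn, and all levels are log2 signals. The spread behind each test of the DG step came from all 16 DG arrays, of 4 ages.

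The series holds 16 male rhesus monkeys (Macaca mulatta), 4 at each of 4 ages: 1 day, 6 months, 1 year, and 6 to 12 years. From each animal the DG, CA3, CA1, subiculum (Sub) and entorhinal cortex (EC) were microdissected, and each piece was put on an Affymetrix array of its own that was designed for human transcripts. The labels name no genotype, treatment or processing batch, so age and any difference in handling between the age groups cannot be told apart; within a group each array is a separate animal. A DG piece holds all cell layers from the middle of the hippocampal body, so it mixes granule cells with hilar neurons, glia, vessels and any progenitors, and the labels give the starting RNA in one place as 50 ng and in another as 10 µg.

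The DG is the first relay of the hippocampus. Its granule cells receive input from the entorhinal cortex and send mossy fibres to CA3. It is also known as a place where neurons are still born after birth: radial glia give rise to dividing intermediate progenitors that make EOMES, and these to young granule cells that make doublecortin, extend neurites, and later form synapses.

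The labelled tissue was checked against its markers. Of 16 granule cell genes measured, 11 had a higher mean in DG than in CA3, EC and Sub among newborns, and 11 did so at 6 months. Some of these leads were very small, such as FAM163B at 0.025 and TDO2 at 0.088 in newborns and TDO2 at 0.015 at 6 months. GRP, the gastrin-releasing peptide gene, led the next region by 2.30 in newborns and 2.84 at 6 months. CALB1, the calcium buffer calbindin, led by 1.4 and 1.06. PROX1, the homeobox factor of granule cells, was not higher in newborn DG than in newborn CA3 on its probe set (7.21 in both). RNA quality was read from GAPDH, as the log2 ratio of the control probe set near the 3' end to that near the 5' end, which is higher where RNA is degraded. It lay between 0.894 and 1.14 in newborn DG and between 0.998 and 1.07 at 6 months. The DG arrays correlated with the others of their group at a mean of 0.985 to 0.993. CA1 was left out of the comparisons between regions, since its GAPDH ratio was 1.29 to 1.43 in newborns and 1.76 to 3.29 at 6 months.

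Between birth and 6 months the largest falls in DG included the matrix gene TNC and the young neuron genes DPYSL3, DCX, SOX11 and SOX4, and the largest rises included EFEMP1, ETNPPL, PTGDS, ENPP2, MBP and SH3GL2. Of 19775 genes tested with limma, 314 (1.59%) changed at a Benjamini-Hochberg adjusted p below 0.05. Of these, 149 (0.753%) rose and 165 (0.834%) fell, so 47.5% were higher. That share was 40.5% on the values as deposited and 32.0% after median centring of the arrays. The median called rise was 0.49 and the median called fall was -0.58, against a median of 0.01 over all genes. An unadjusted p below 0.05 was reached by 2597 genes (13.1%), 1499 of them higher (7.58%) and 1098 lower (5.55%), the background for the unadjusted counts of gene lists below. Only 5 called rises but 13 called falls were larger than 1 log2. The 4 values of one age lay entirely apart from the 4 of the other for 1673 genes (8.46%), 1061 of them higher at 6 months, and 301 of the 314 called genes were among these. The 314 calls became 171, 162 and 136 without 6-month array 9, 11 or 12 and 186, 167 and 174 without newborn array 13, 14 or 15.

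**Figure D1:**
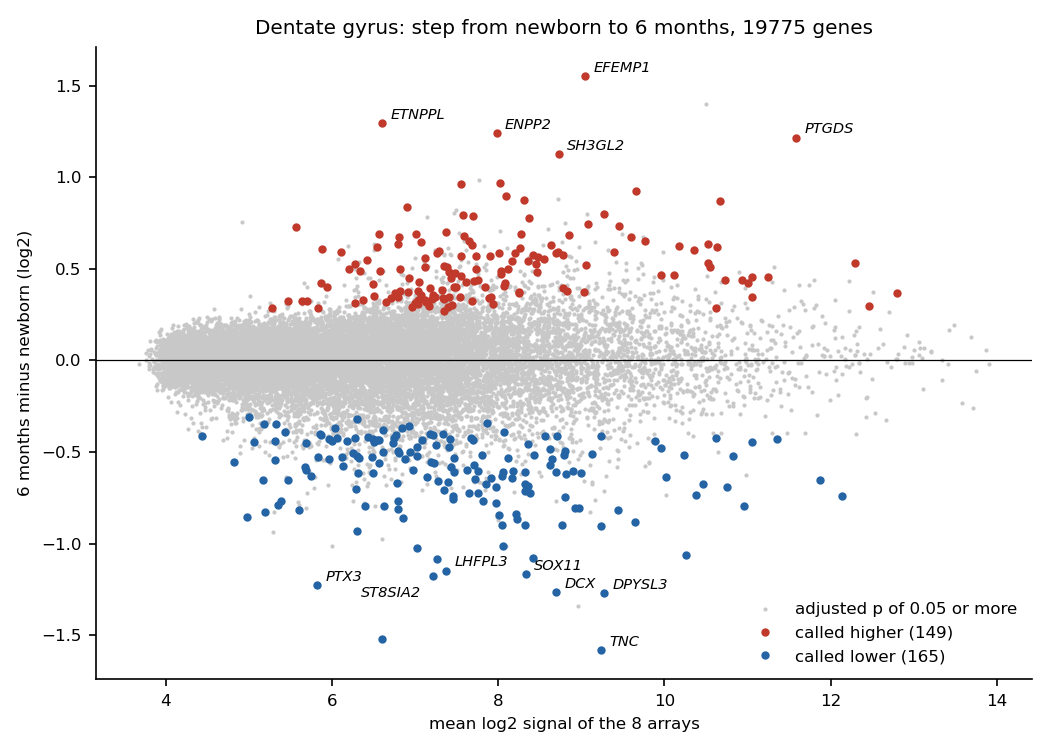
Step from newborn to 6 months (vertical axis, log2) against the mean log2 signal of the 8 arrays (horizontal axis), with 1 point per gene for 19775 genes. The 149 genes called higher are red, the 165 called lower are blue, and the longest falls reach further from 0 than the longest rises, with TNC at -1.58 and EFEMP1 at 1.56 as the extremes.

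The 12 largest rises among called genes with separate groups and a level above the median were EFEMP1, ETNPPL, ENPP2, PTGDS, SH3GL2, IRAG1, AKR1C1, TEF, MSRB2, HDAC11, MBP and JADE2. EFEMP1, which codes for a fibulin of the extracellular matrix, read 7.93, 8.24, 8.48 and 8.42 in newborns and 10.33, 10.04, 9.60 and 9.32 at 6 months. The highest newborn array stayed well below the lowest array at 6 months. The rise was 1.56 (SE 0.206, n = 4 per age, limma adjusted p = 0.000797), or 2.94-fold, and the level then held at 9.77 ± 0.24 (SD, n = 4) at 1 year and 10.10 ± 0.35 in adults. ETNPPL, a phospholyase of astrocytes that breaks down phosphoethanolamine, read 5.30, 5.98, 6.53 and 6.02 in newborns and 7.33, 7.27, 7.44 and 6.97 at 6 months. Its newborn arrays were the more scattered, with a range of more than 1 log2, and still did not reach the older ones (rise 1.30, SE 0.231, adjusted p = 0.00801).

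PTGDS, the prostaglandin D synthase secreted by oligodendrocytes and meninges, was among the brightest genes that rose. It read 11.16, 10.54, 11.06 and 11.14 in newborns and 12.45, 12.21, 12.15 and 11.96 at 6 months, a rise of 1.22 (SE 0.160, adjusted p = 0.00079). ENPP2 codes for autotaxin, a lipid enzyme made by myelinating oligodendrocytes. It read 7.41, 7.69, 7.87 and 6.47 in newborns and 8.66, 9.14, 8.08 and 8.53 at 6 months (rise 1.24, SE 0.261, adjusted p = 0.0224). Its groups came close only between newborn array 15 and 6-month array 11. MBP, myelin basic protein, read 10.25, 10.47, 10.32 and 9.88 in newborns and 11.44, 11.08, 10.91 and 10.97 at 6 months. Its rise of 0.87 (SE 0.146, adjusted p = 0.00457) was followed by means of 11.29 at 1 year and 11.51 in adults.

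SH3GL2, endophilin A1, bends membrane during the recycling of synaptic vesicles. It read 8.34, 8.26, 8.05 and 8.01 in newborns and 9.26, 9.33, 9.32 and 9.24 at 6 months and the 4 older arrays were nearly alike. The rise was 1.13 (SE 0.114, adjusted p = 0.000104), and the gene stood at 9.12 at 1 year and 9.99 in adults. HDAC11, a histone deacetylase, read 7.91, 7.79, 7.69 and 8.11 and then 8.70, 8.70, 8.82 and 8.78 (rise 0.88, SE 0.107, adjusted p = 0.000371). TEF, a transcription factor of the family driven by the circadian clock, read 9.29, 9.30, 8.87 and 9.31 and then 9.95, 10.13, 10.21 and 10.18 (rise 0.92, SE 0.122, adjusted p = 0.000797). In both genes all 4 older arrays were higher than every newborn array, which the rule for naming these rises required. IRAG1, a target of cyclic GMP-dependent kinase, rose by 0.97, AKR1C1, an enzyme of steroid metabolism, by 0.96, MSRB2, a mitochondrial methionine sulfoxide reductase, by 0.90, and JADE2, a chromatin protein, by 0.84 (adjusted p from 0.000165 to 0.0134). JADE2 went on to 7.60 at 1 year and 8.25 in adults, from 6.48 in newborns and 7.32 at 6 months.

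The calls of ENPP2 and MSRB2 did not hold when 1 array was left out: numbers 9, 10, 12 or 13 for ENPP2 (adjusted p up to 0.0649), and 12 or 14 for MSRB2 (up to 0.0573). Averaging all probe sets of a gene in place of the brightest cut 8 of the 12 rises by more than 1.5 times, to between 0.19 and 0.57, and MBP (0.19, adjusted p = 0.10) and AKR1C1 (0.32, adjusted p = 0.0645) were then not called; MBP was also not called when all 80 arrays were fitted together with the number in the title as a replicate block (adjusted p = 0.463), nor ENPP2 when the 8 arrays were fitted alone (0.0708).

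**Figure D2:**
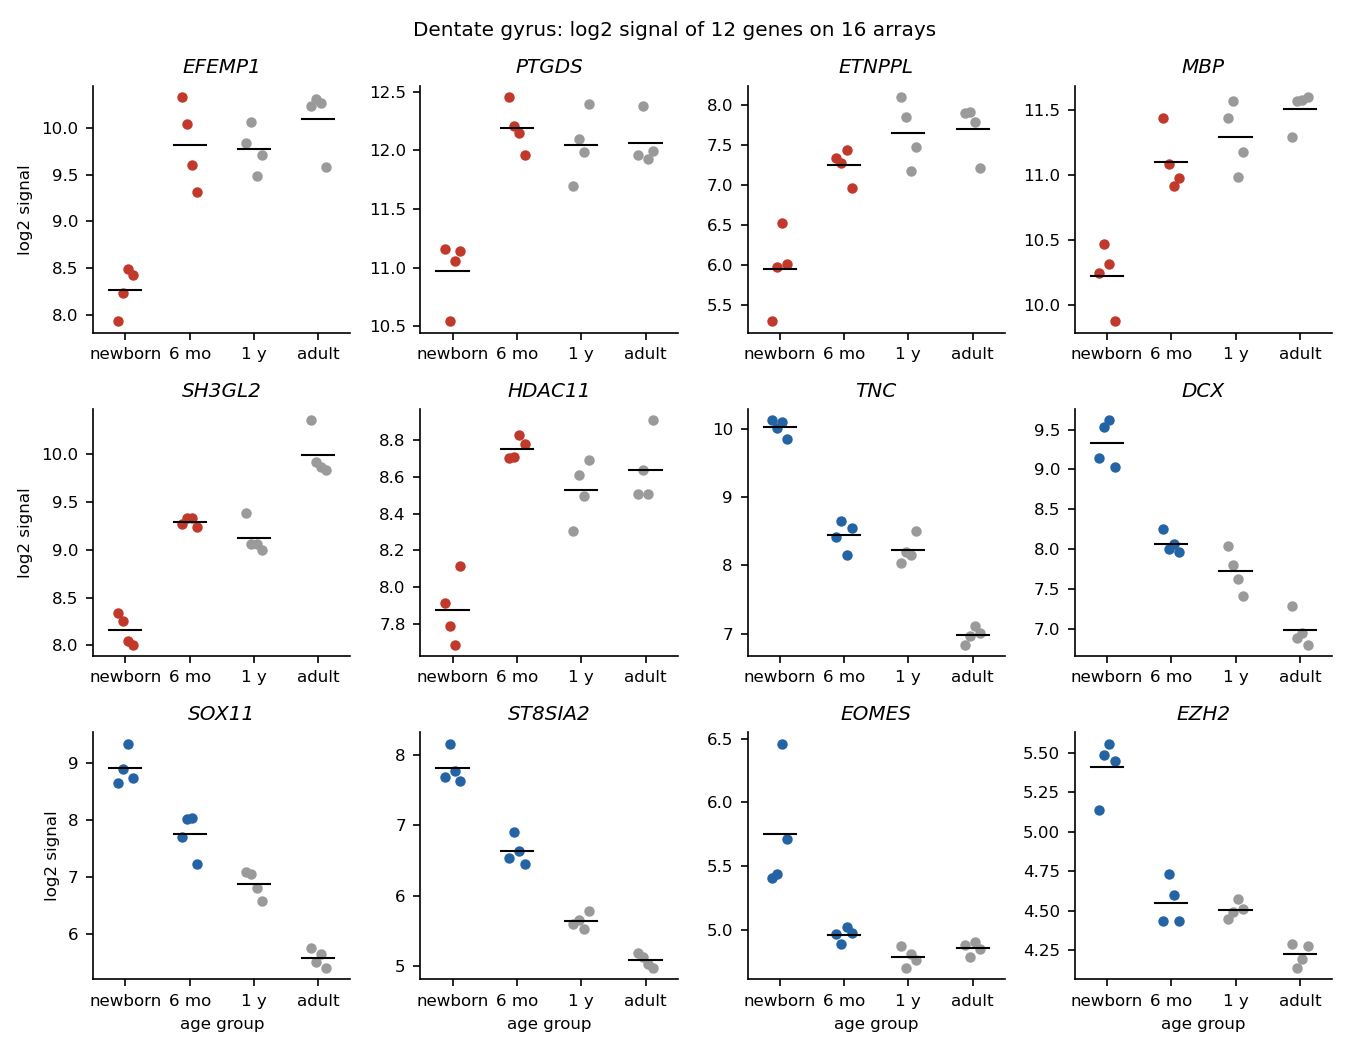
Log2 signal (vertical axes, each with its own range) of 12 genes on the 16 DG arrays, by age group (horizontal axes), with 1 point per animal and a bar at the mean of 4. The newborn and 6-month arrays that the test compares are coloured, red for genes higher and blue for genes lower at 6 months. None of the 12 genes has overlapping values at these ages, which the rule for naming required of all but EOMES and EZH2. The other arrays, in grey, entered the fit only through the shared spread.

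The 12 largest falls, named by the same rule of a call, separate groups and level, were TNC, DPYSL3, DCX, PTX3, ST8SIA2, SOX11, LHFPL3, TFAP2C, CD24, SOX4, SYT6 and TTC28. TNC, tenascin-C, a matrix protein of radial glia and of germinal zones, read 10.12, 10.01, 10.11 and 9.85 in newborns and 8.42, 8.65, 8.14 and 8.55 at 6 months. More than 1 log2 separated the groups, and TNC fell by 1.58, or 3.0-fold (adjusted p = 2.38e-06, SE 0.114, 4 animals per age). Its mean was 8.22 at 1 year and 6.98 in adults. ST8SIA2 is the enzyme that puts polysialic acid on the adhesion molecule NCAM of migrating and growing neurons. It read 7.68, 8.16, 7.77 and 7.62 in newborns and 6.54, 6.91, 6.64 and 6.45 at 6 months, a fall of 1.18 (SE 0.114, adjusted p = 7.93e-05), with 5.64 at 1 year and 5.08 in adults.

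DCX, doublecortin, a microtubule protein of young neurons, read 9.15, 9.53, 9.61 and 9.04 in newborns and 8.25, 8.0, 8.07 and 7.96 at 6 months. It fell by 1.26 (SE 0.147, adjusted p = 0.000239), and its adult mean was 6.98. DPYSL3, a collapsin response mediator of growing axons, read 9.78, 10.13, 9.88 and 9.85 and then 8.59, 8.69, 8.71 and 8.57, a fall of 1.27 (SE 0.135, adjusted p = 0.000136). In DCX and DPYSL3 alike the 6-month arrays lay closer to each other than the newborn arrays did. SOX11, a transcription factor of newly made neurons, read 8.66, 8.90, 9.35 and 8.75 and then 7.71, 8.01, 8.05 and 7.23. Its fall of 1.17 (SE 0.176, adjusted p = 0.00231) was followed by means of 6.88 at 1 year and 5.57 in adults. SOX4, which acts beside SOX11, read 10.67, 10.69, 11.21 and 10.56 and then 9.78, 9.84, 9.70 and 9.57 (fall 1.06, SE 0.161, adjusted p = 0.00231). Newborn array 15 was the highest of its group for DCX, SOX11 and SOX4.

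CD24, a surface protein of young neurons, fell by 1.08 (adjusted p = 0.00282), with all 5 of its other probe sets moving the same way. LHFPL3, a gene of oligodendrocyte precursors, fell by 1.15 (adjusted p = 0.00921), TFAP2C, a transcription factor of cortical progenitors, by 1.08 (adjusted p = 0.00167), and SYT6, a synaptotagmin, by 1.02 (adjusted p = 0.00401). TTC28, a protein with tetratricopeptide repeats, fell by 1.02 (adjusted p = 0.0013), and PTX3, a secreted pentraxin, by 1.23 (adjusted p = 0.0161). The call of PTX3 was lost without array 12, 14 or 15 (adjusted p up to 0.065) and with the 8 arrays fitted alone (0.0799), and with the mean of all probe sets 9 of the 12 falls were smaller by more than 1.5 times, from -0.53 to -0.74, with all 9 still called. NHLH2, a helix-loop-helix factor of developing neurons, had a larger fall than most of these, 1.52 (SE 0.301, adjusted p = 0.0161), but its groups overlapped: 7.72, 7.14, 8.0 and 6.60 against 5.48, 6.89, 5.85 and 5.17. It falls outside the rule by which genes were named and was chosen after its values were seen.

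Genes of radial glia and progenitors fell, in part. Of 23 measured, 7 fell and 0 rose in limma (10 lower and 1 higher at an unadjusted p below 0.05), and the median step was -0.14. In this mixed tissue fewer cells of a type and less RNA per cell cannot be told apart. The list's mean level lay between 7.97 and 8.29 on the newborn arrays and between 7.65 and 7.79 at 6 months, with no overlap. TFAP2C read 7.87, 7.63, 7.97 and 7.75 and then 6.63, 6.89, 6.85 and 6.51. EOMES, the marker of intermediate progenitors, read 5.40, 5.44, 6.46 and 5.71 and then 4.97, 4.89, 5.02 and 4.97. Newborn array 15 stood high, the 6-month arrays were nearly alike, and the fall was 0.79 (SE 0.158, adjusted p = 0.0168), with means of 4.78 at 1 year and 4.85 in adults.

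FABP7, a lipid carrier of radial glia, fell by 0.67 (adjusted p = 0.0134) and EMX2, a patterning factor of the medial cortex, by 0.54 (adjusted p = 0.0257). PTPRZ1, a receptor phosphatase of these cells, and HES1, a target of Notch, were the other 2 called members, at -0.73 (adjusted p = 0.0333) and -0.34 (adjusted p = 0.0293). SOX2 (-0.63, adjusted p = 0.0899) and VIM (-0.73, adjusted p = 0.243) did not pass, and PAX6 (-0.13), HOPX (0.06) and NES (0.14) were near 0. These last 5 and HES1 were named after their values were seen. The count of 7 fell to 4 without array 10, 11 or 15 and to 2 without array 12, where FABP7 (0.0574) and EOMES (0.056) missed the threshold. EMX2 also missed it without 10, 11, 12, 13 or 15 (up to 0.0994), and PTPRZ1 without any array but 16 (up to 0.105); with all 80 arrays and the replicate block FABP7 was at 0.303, and with the 8 arrays alone EOMES was at 0.0863.

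Genes of the cell cycle were dim, with 9 of 30 above the median level, and 3 of 30 fell in limma while 0 rose (11 lower and 0 higher at an unadjusted p below 0.05; median step -0.10). Even so the list's mean level was 5.63 to 5.67 on the newborn arrays and 5.43 to 5.47 at 6 months, a gap wider than the spread within either group, and it stayed near the lower value at 1 year (5.47 to 5.53). UBE2C, the ubiquitin enzyme that drives exit from mitosis, read 6.04, 6.17, 5.89 and 6.17 in newborns and 5.41, 5.25, 5.50 and 5.57 at 6 months. It fell by 0.63 (SE 0.0911, adjusted p = 0.00161) and held its call whichever array was left out. CDC20, its partner in mitosis, fell by 0.77 (adjusted p = 0.0279) and HMGB2, a chromatin protein of dividing cells, by 0.86 (adjusted p = 0.0463). Those calls were less steady: CDC20 lost its own without 9, 10, 11, 12 or 13 (up to 0.0962) and HMGB2 without 9, 11, 12, 13, 14 or 15 (up to 0.149). With the 8 arrays alone CDC20 was at an adjusted p of 0.102, and HMGB2 was at 0.0533 as deposited and, as the mean of all its probe sets, at a step of -0.32 (0.26). The count of 3 was 1 without 9, 11 or 12 and 2 without 10, 13, 14 or 15. TOP2A (-0.36, adjusted p = 0.0522) and CKS2 (-0.38, adjusted p = 0.0559) came close to the threshold. MKI67, the usual marker of dividing cells, read 5.25, 5.15, 5.27 and 5.25 in newborns and 5.41, 5.21, 5.29 and 5.38 at 6 months, so its groups overlapped.

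Genes of immature neurons and neurite outgrowth had the lowest median of the 31 lists. Of 29 measured, 9 fell and 0 rose in limma (19 lower and 0 higher at an unadjusted p below 0.05), 28 had a negative step, and the median step was -0.31 beside 0.01 over all genes. The list's mean level was 9.54 to 9.73 in newborns, 9.11 to 9.22 at 6 months, 8.81 to 8.97 at 1 year and 8.62 to 8.74 in adults, so no 2 neighbouring ages overlapped. Beyond DCX, DPYSL3, SOX4, SOX11 and CD24, DPYSL5 fell by 0.79 (SE 0.107, adjusted p = 0.000931), from 6.99, 6.93, 6.87 and 7.29 to 6.16, 6.28, 6.16 and 6.30. The other 3 called members, given after their values were seen, were MARCKSL1 at -0.80, NREP at -0.65 and IGFBPL1 at -0.44. Genes of the tubulin and stathmin families stayed nearer 0: TUBB3 was at -0.28, STMN2 at -0.31, TUBA1A at -0.16 and GAP43, the growth cone protein, at -0.23, and none of these 4 passed. The count was 7 to 9 when any single array was left out. A fall of this list was not particular to DG. In CA3, EC and Sub its median step was -0.37, -0.26 and -0.34, with 11, 10 and 11 members called lower and 0 higher.

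Of 30 axon guidance genes, 2 fell and 0 rose (10 lower and 1 higher at an unadjusted p below 0.05; median step -0.15). They were EPHB1, an ephrin receptor, at -0.61 (adjusted p = 0.0425) and SEMA6A, a semaphorin, at -0.46 (adjusted p = 0.0439). Neither call was steady: EPHB1 lost it without 10, 11, 12, 13, 14 or 15 (up to 0.129) and SEMA6A without 9, 10, 11, 12, 13, 15 or 16 (up to 0.135), and with all probe sets averaged SEMA6A was at -0.10 (0.502) and EPHB1 at -0.41 (0.0669). DCC, a netrin receptor, was at -0.55 (adjusted p = 0.0639).

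**Figure D3:**
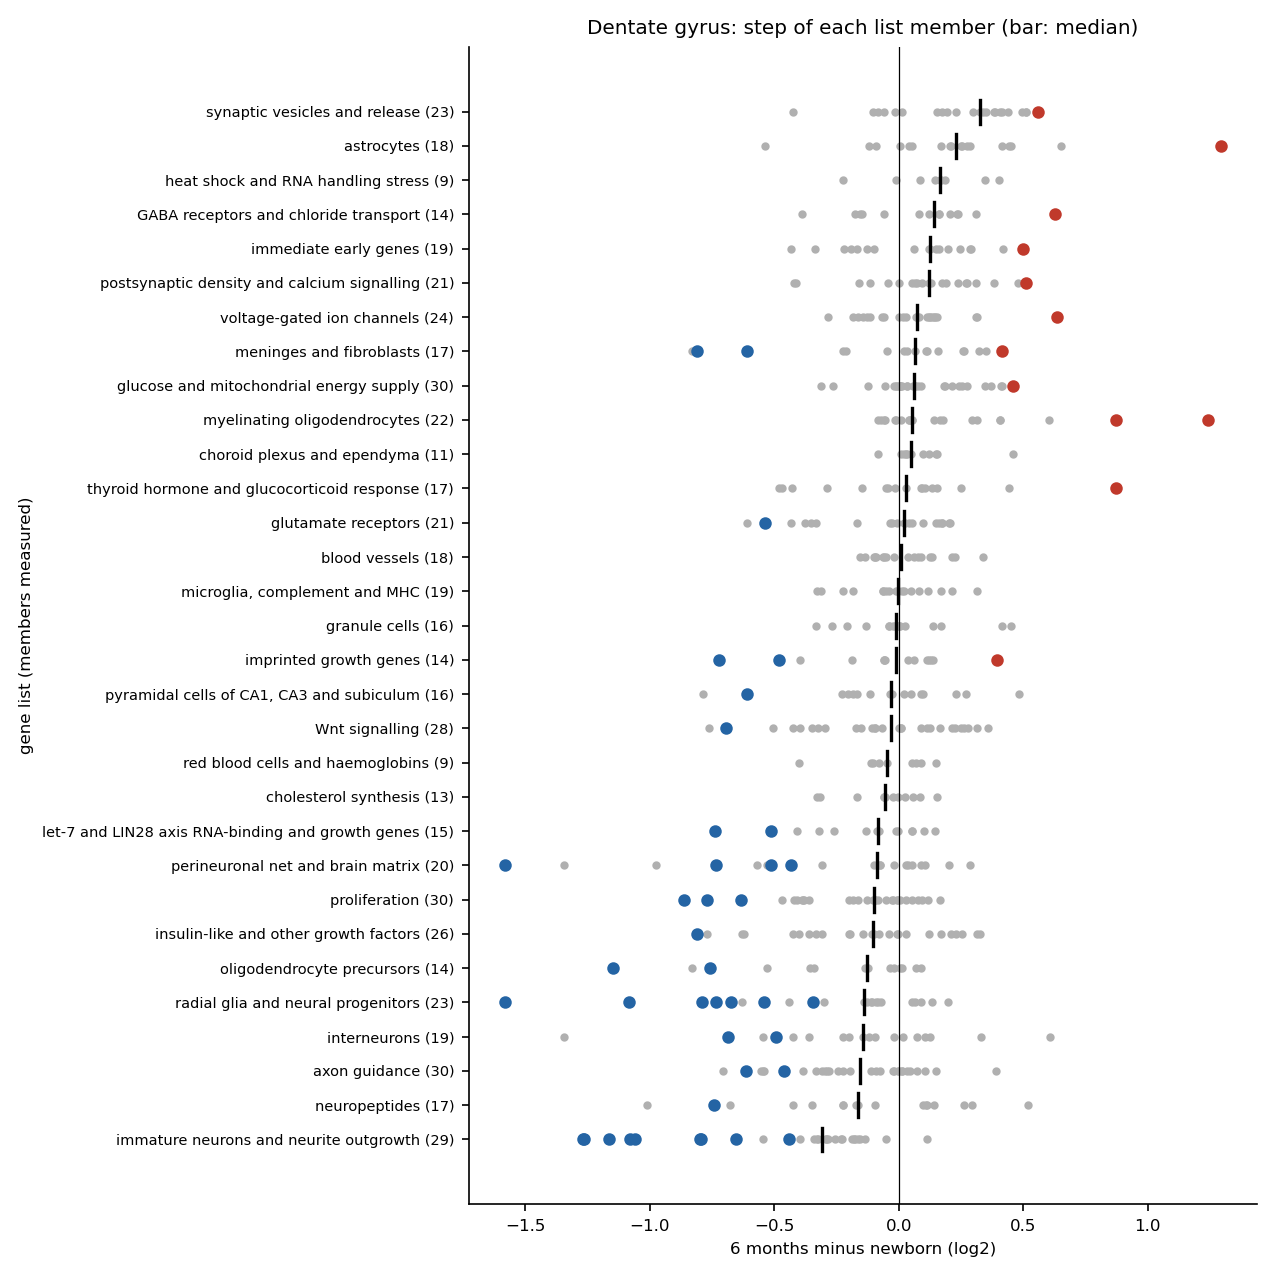
Step from newborn to 6 months (horizontal axis, log2) of each measured member of 31 gene lists (rows, with the number measured), with black bars at the list medians; red and blue points are members called higher and lower, grey points those not called. Immature neurons stand at the bottom with a median of -0.31 and synaptic vesicles at the top with 0.32.

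Genes that mark granule cells did not move together. Of 16 measured, 0 were called in limma (0 higher and 1 lower at an unadjusted p below 0.05), the median step was -0.01, and the list's mean level was 6.75 to 7.0 in newborns and 6.81 to 7.02 at 6 months. GRP read 9.94, 9.64, 9.53 and 9.77 and then 9.69, 9.73, 9.62 and 9.92. CALB1 read 8.80, 9.14, 9.22 and 8.70 and then 9.10, 9.29, 8.70 and 8.76. Both groups overlapped in each gene, and the steps were 0.02 and 0.00. DOCK10, a guanine nucleotide exchange factor, had the highest step of the list at 0.45 (adjusted p = 0.525) and SEMA5A, a semaphorin, the lowest at -0.33 (adjusted p = 0.361).

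Few synaptic vesicle genes passed singly. Of 23 measured, 18 had a positive step and the median was 0.32, but 1 rose and 0 fell in limma (12 higher and 0 lower at an unadjusted p below 0.05). The list's mean level was 8.57 to 8.81 in newborns and 8.88 to 9.03 at 6 months, with no overlap, and 8.79 to 8.87 at 1 year. Such a gap was not particular to the lists where it is stated. The mean levels of the axon guidance, postsynaptic density, let-7 and LIN28 axis, and interneuron lists also lay apart between these ages. SV2B, a vesicle glycoprotein, read 6.85, 7.04, 6.52 and 6.94 in newborns and 7.23, 7.11, 7.61 and 7.63 at 6 months (rise 0.56, SE 0.131, adjusted p = 0.0408). Its call was lost without 9, 11, 12, 13, 15 or 16 (up to 0.150), and the mean of all its probe sets was at 0.14 (adjusted p = 0.49). SLC17A7, the vesicular glutamate transporter of granule cells, was at 0.51 (adjusted p = 0.0633), SYN2, a synapsin, at 0.41 (adjusted p = 0.0769), CPLX2, a complexin, at 0.39 (adjusted p = 0.0974) and SNAP25, a fusion protein, at 0.44 (adjusted p = 0.119), each with separate groups. As means of all probe sets SLC17A7 (0.64, adjusted p = 0.0287), SYN2 (0.51, 0.0216) and CPLX2 (0.32, 0.0425) were called. SLC17A6, the transporter more common in immature neurons, was the lowest at -0.42.

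Receptors and channels gave single calls. Of 21 genes of the postsynaptic density, NPTX1, a neuronal pentraxin that clusters AMPA receptors, rose by 0.51 (SE 0.0919, adjusted p = 0.00869), from 10.46, 10.37, 10.22 and 10.14 to 10.74, 11.04, 10.75 and 10.69, and SHANK3, a scaffold, was at 0.48 (adjusted p = 0.0555). Of 21 glutamate receptor genes, GRIK3, a kainate receptor subunit, fell by 0.54 (adjusted p = 0.0474) with groups that touched, and GRIN3A, an NMDA receptor subunit of early life, was at -0.61 (adjusted p = 0.220). GABBR1, a subunit of the GABA-B receptor, was the 1 called of 14 GABA genes, read 9.99, 10.03, 9.41 and 10.01 and then 10.35, 10.36, 10.51 and 10.73, and rose by 0.63 (adjusted p = 0.015). It was back at 9.83 at 1 year and 9.88 in adults, and SLC12A5, the chloride exporter KCC2, was at 0.31 (adjusted p = 0.347). SCN2B, a sodium channel subunit, rose by 0.64 (adjusted p = 0.0434) among 24 channel genes, and JUN by 0.50 (adjusted p = 0.0417) among 19 immediate early genes. The medians of these 5 lists ran from 0.02 to 0.14. At an unadjusted p below 0.05, 6 postsynaptic density genes were higher and 1 lower, against 7.58% higher and 5.55% lower over all genes. Higher and lower were 3 and 5 of the glutamate receptor genes and 3 and 0 of the GABA genes. They were 1 and 1 of the channel genes and 5 and 1 of the immediate early genes. Calls were lost without array 12 for GABBR1 (0.062), without 9, 10, 11, 12, 13, 14 or 15 for GRIK3 (up to 0.164), and without 9, 10, 11, 12, 14, 15 or 16 for SCN2B and JUN (up to 0.149). With all 80 arrays and the replicate block NPTX1 (adjusted p = 0.32) and GABBR1 (0.456) were not called, and as means of all probe sets GRIK3 was at -0.28 (0.12) and JUN at 0.28 (0.0693).

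Of 20 matrix genes measured, 4 fell and 0 rose in limma (9 lower and 1 higher at an unadjusted p below 0.05; median step -0.09), and the list's mean level went from between 7.95 and 8.15 to between 7.66 and 7.85. Beside TNC and PTPRZ1 these were NCAN, neurocan, at -0.51 (adjusted p = 0.0237), and CSPG5, neuroglycan C, at -0.43 (adjusted p = 0.0354), both chondroitin sulfate proteoglycans of young brain. RELN, reelin, which guides granule cell layering, read 10.13, 9.93, 9.77 and 8.72 in newborns and 8.24, 9.33, 7.87 and 7.73 at 6 months. That was a large step of -1.34, but newborn array 16 and 6-month array 10 crossed and the adjusted p was 0.053. The matrix list had 6, 5 and 5 members called lower in CA3, EC and Sub, and 0, 1 and 0 higher, beside the 4 lower in DG. The count of 4 was 2 without 9, 13, 14 or 15, 1 without 11 or 12, and 7 without 16; NCAN lost its call without 9, 11, 12 or 14 (up to 0.0742) and CSPG5 without 10, 11, 12, 13, 14 or 15 (up to 0.123), and neither was called with the 8 arrays alone (0.0712 and 0.0733). Of 17 neuropeptide genes (median step -0.16) CRH, corticotropin-releasing hormone, fell by 0.74 (adjusted p = 0.0266; 0.0993 at most, without 11, 13, 14 or 15, and -0.41 as the mean of its probe sets, adjusted p = 0.0796), while TAC1, at -1.01, did not pass (adjusted p = 0.123).

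Growth-related lists gave few calls with medians near 0. At an unadjusted p below 0.05, 0 of 15 genes of the let-7 and LIN28 axis were higher and 4 lower. Higher and lower were 1 and 3 of 14 imprinted genes, 2 and 7 of 26 growth factor genes, and 6 and 7 of 28 Wnt genes. Over all genes the shares were 7.58% higher and 5.55% lower. YBX1, a protein that binds RNA and promotes translation and growth, read 12.55, 12.66, 12.46 and 12.35 in newborns and 11.94, 11.64, 11.72 and 11.76 at 6 months, so its groups were far apart for so bright a gene (fall 0.74, SE 0.108, adjusted p = 0.00167; 0.324 with all 80 arrays and the replicate block). MYCN, the transcription factor N-myc, fell by 0.51 (adjusted p = 0.0151; 0.0592 at most, without 9, 11 or 14, and -0.04 as the mean of all its probe sets), and both belong to 15 genes of the let-7 and LIN28 axis (2 lower, 0 higher, median -0.08). MEST, an imprinted gene, read 8.46, 8.76, 9.02 and 8.72 and then 8.26, 8.11, 7.83 and 7.88 (fall 0.72, adjusted p = 0.00392), and IGF2R, which clears IGF2, fell by 0.48 (adjusted p = 0.026), while GRB10 rose by 0.39 (adjusted p = 0.044) with groups that touched. These 3 were the calls among 14 imprinted genes (median -0.01); IGF2R lost its own without 9, 11, 12, 13, 14 or 16 (up to 0.0975) and GRB10 without 10, 11, 12, 13, 15 or 16 (up to 0.147). As means of all probe sets IGF2R was at -0.20 (adjusted p = 0.151) and GRB10 at 0.066 (0.744), and GRB10 was not called on the values as deposited (0.115) or after median centring (0.162).

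IGFBP2, a binding protein of insulin-like growth factors, read 7.18, 7.18, 6.99 and 7.45 in newborns and 6.12, 6.39, 6.62 and 6.41 at 6 months (fall 0.81, SE 0.130, adjusted p = 0.00384) and was the 1 call among 26 growth factor genes (median -0.10). TCF4, a helix-loop-helix factor held in the Wnt list, read 11.04, 11.23, 11.24 and 10.90 and then 10.34, 10.57, 10.49 and 10.23 (fall 0.69, adjusted p = 0.00213), the 1 call of 28 (median -0.03), which as the mean of all its probe sets was at -0.47 (adjusted p = 0.323). By symbol it is the E-protein TCF4 and not the Wnt effector TCF7L2 of the same older name. MBP was the 1 call of 17 thyroid hormone and glucocorticoid genes (median 0.03). Of these 17, 2 were higher and 2 lower at an unadjusted p below 0.05. Of 30 genes of energy supply, 8 were higher and 0 lower at that threshold. PGK1, a glycolytic kinase, rose by 0.46 (adjusted p = 0.0157; 0.062 at most, without 11, 12 or 15) among 30 genes of energy supply (median 0.06), and its probe set of highest variance was at 0.04 (adjusted p = 0.955). Of 13 cholesterol synthesis genes 0 were called in limma (0 higher and 1 lower at an unadjusted p below 0.05; median -0.05).

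Markers of the oligodendrocyte lineage were measured in 2 lists. Of 22 genes of myelinating oligodendrocytes, 2 rose (MBP and ENPP2) and 0 fell (5 higher and 0 lower at an unadjusted p below 0.05; median step 0.05), while of 14 genes of oligodendrocyte precursors, 0 rose and 2 fell (LHFPL3 and SOX6; 6 lower and 0 higher at an unadjusted p below 0.05; median -0.13). The mean of the myelin list overlapped between the ages, at 6.44 to 6.66 in newborns and 6.63 to 6.89 at 6 months. That of the precursor list did not, at 6.86 to 7.04 and 6.47 to 6.76. MOG, a myelin glycoprotein, read 6.05, 6.51, 6.36 and 5.91 and then 7.13, 6.59, 6.66 and 6.86 (step 0.60, adjusted p = 0.0546). As the mean of all its probe sets MOG was at 0.47 and was called (adjusted p = 0.0301). MAG, the myelin-associated glycoprotein, was at 0.14, and CNP, a myelin enzyme, at 0.05. SOX6 fell by 0.76 (adjusted p = 0.0243; 0.0912 at most, without 9, 11, 12, 13, 14 or 15, and -0.19 as the mean of its probe sets, adjusted p = 0.0936), and PDGFRA, the growth factor receptor of precursors, was at -0.83 (adjusted p = 0.117).

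Among 18 astrocyte genes ETNPPL alone rose and 0 fell (6 higher and 1 lower at an unadjusted p below 0.05; median step 0.23). The list's mean ran from 9.24 to 9.52 in newborns and from 9.47 to 9.73 at 6 months, so the groups overlapped. ALDH1L1 was at 0.65 (adjusted p = 0.241), AGT, angiotensinogen, at 0.44 (adjusted p = 0.225) and GFAP at 0.27 (adjusted p = 0.630), while SOX9, which astrocytes share with progenitors, was at -0.54 (adjusted p = 0.087). None of 19 microglia, complement and MHC genes was called in limma (0 higher and 0 lower at an unadjusted p below 0.05).

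Markers of other cells that a DG piece can hold were measured beside these groups. Of 19 interneuron genes, LHX6 (-0.49, adjusted p = 0.013) and DLX1 (-0.68, adjusted p = 0.0331), factors of interneurons from the ganglionic eminence, fell and 0 rose (6 lower and 1 higher at an unadjusted p below 0.05). With the 8 arrays fitted alone LHX6 was not called (adjusted p = 0.0527). PVALB, parvalbumin, was at 0.33 (adjusted p = 0.202). Of 16 genes of pyramidal cells 1 fell (FN1, fibronectin, -0.61, adjusted p = 0.0463), and the list mean was 6.57 to 6.82 in newborns and 6.53 to 6.68 at 6 months. Of 17 genes of meninges and fibroblasts, SLC22A6, an organic anion transporter, rose by 0.42 (adjusted p = 0.032) and IGFBP2 and FN1 fell. The list mean was 6.34 to 6.51 in newborns and 6.22, 6.23 and 6.25 on 6-month arrays 11, 12 and 9, below every newborn array, but 6.71 on 6-month array 10, which alone made the groups overlap.

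In limma 0 of 18 vessel genes, 0 of 11 choroid plexus genes, 0 of 9 genes of red blood cells and 0 of 9 stress genes were called (1, 1, 0 and 2 higher and 0 lower at an unadjusted p below 0.05). TTR, transthyretin, the main product of choroid plexus, read 9.25 on 6-month array 10 and 6.04 to 6.96 on the other 7, and that array also carried the highest choroid list mean, 6.00 against 5.70 to 5.83. EFEMP1, PTGDS and IGFBP2 are made by meninges too, and the part of meninges in their changes was not tested. The call of DLX1 was lost without any array but 16 (up to 0.119), that of FN1 without any single array (up to 0.161) and as the mean of its probe sets (-0.35, 0.11), and that of SLC22A6 without 9, 10, 11, 14, 15 or 16 (up to 0.0942).

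**Figure D4:**
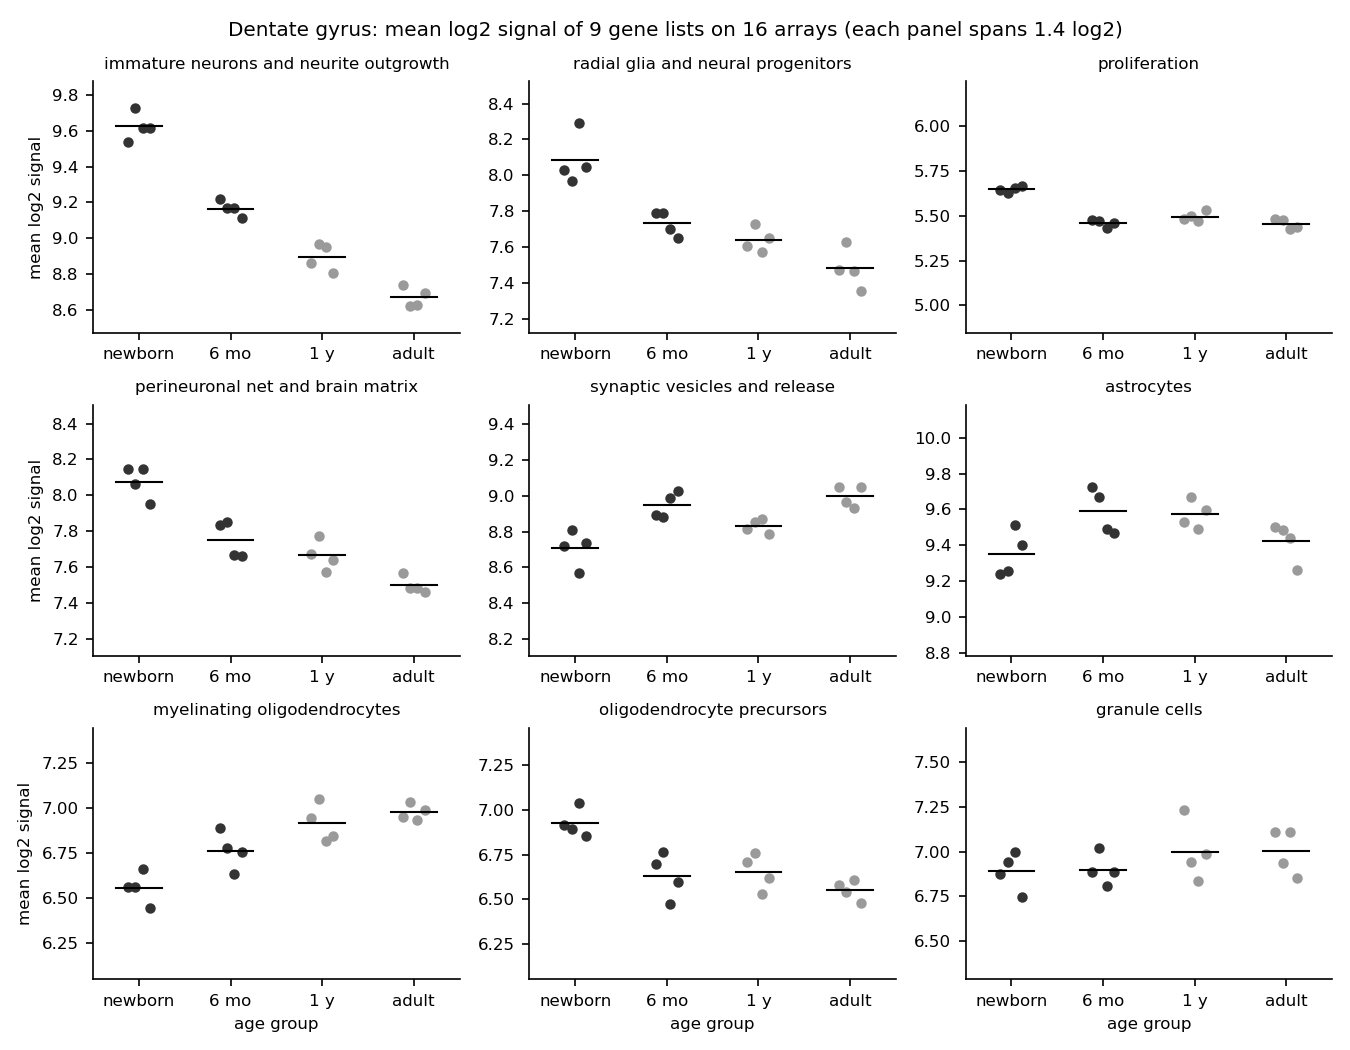
Mean log2 signal (vertical axes, each panel 1.4 log2 high) of 9 gene lists on the 16 DG arrays, by age group (horizontal axes), with 1 point per animal and a bar at the mean of 4; newborn and 6-month arrays are dark. Immature neurons fall at every age from 9.54 to 9.73 in newborns to 8.62 to 8.74 in adults, whereas granule cell markers stay between 6.75 and 7.23 on all 16 arrays.

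Whether the DG step differed from that of the rest of the formation was tested on the difference between DG and the mean of CA3, EC and Sub of the same title number. The numbers were taken to mark animals, which the labels do not state outright. Only 4 of 19775 genes (0.0202%) passed in limma, 2 higher and 2 lower in DG, while 1265 had an unadjusted p below 0.05. They were SH3GL2, MGLL, KLF10 and EZH2, each at an adjusted p of 0.0235. SH3GL2 rose by 1.13 in DG and by 0.71 in CA3, and stood at 0.34 in EC (adjusted p = 0.252) and -0.41 in Sub (adjusted p = 0.255), which made the DG step 0.91 larger than the mean of the others (SE 0.137). Newborn DG began low for this gene, at 8.16 against 9.71, 9.88 and 9.78 in newborn CA3, EC and Sub, and at 6 months it read 9.29 against 10.41, 10.22 and 9.37.

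MGLL, monoglyceride lipase, which breaks down the endocannabinoid 2-arachidonoylglycerol, read 8.87, 9.02, 8.90 and 8.79 in newborn DG and 9.04, 9.12, 8.97 and 9.36 at 6 months. Its own step there, 0.23, did not pass (adjusted p = 0.457), but it fell in CA3 by 0.51 (adjusted p = 0.0193) and stood at -0.33 in EC and -0.18 in Sub, a difference of 0.57 (SE 0.0882). KLF10, an early response factor downstream of TGF beta, read 7.56, 7.87, 7.86 and 7.28 and then 7.04, 7.14, 6.94 and 7.18 in DG, a step of -0.57 (adjusted p = 0.0669) with separate groups. In EC it rose by 0.57 (adjusted p = 0.0126), and the difference was -0.84 (SE 0.130).

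EZH2, the methyltransferase of the polycomb complex that silences genes in progenitors, read 5.14, 5.49, 5.56 and 5.45 in newborn DG and 4.43, 4.73, 4.60 and 4.44 at 6 months. The fall of 0.86 (SE 0.0900, adjusted p = 0.000136) compared with -0.20, -0.28 and -0.10 in CA3, EC and Sub, none of which passed, and the difference was -0.66 (SE 0.104). Newborn DG was at 5.41 and newborn CA3, EC and Sub at 4.65 to 4.68, whereas at 6 months the 4 regions lay between 4.40 and 4.55. Its level is below the median of all genes, outside the rule for naming, so it was chosen after its values were seen. With no replicate block, that is without matching by number, KLF10 (adjusted p = 0.341) and MGLL (0.612) were not called and SH3GL2 and EZH2 were. As deposited 0 genes passed, with 15 when CA1 joined the reference and 2 with EC and Sub alone, where EZH2 was not called (adjusted p = 0.0684). Without number 9, 11, 12 or 15, 0 genes passed, and without 14 or 16, 2 did. SH3GL2 and EZH2 were not called without 14 (adjusted p = 0.0504 and 0.0589) or without 16 (0.0819 for both).

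**Figure D5:**
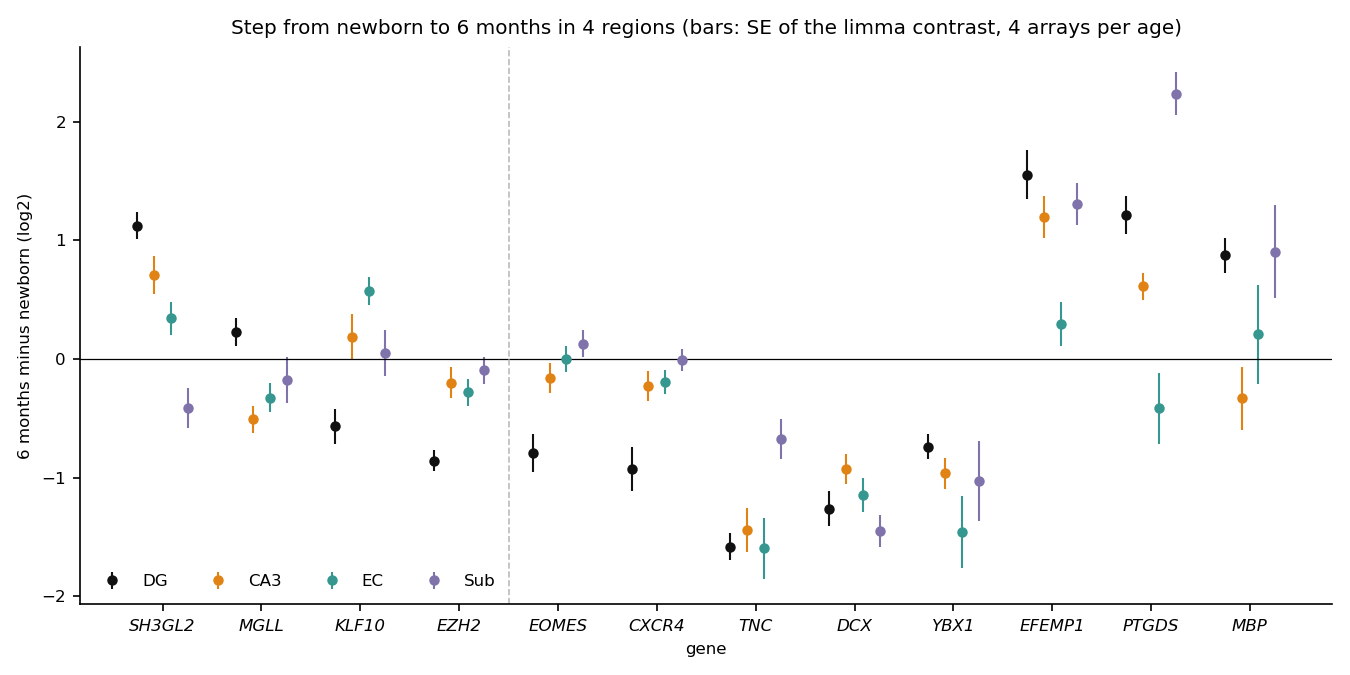
Step from newborn to 6 months (vertical axis, log2) in DG, CA3, EC and Sub for 12 genes, with SE bars from limma and 4 arrays per age and region. The 4 genes left of the dashed line are those whose DG step differed from the mean of the other regions; for EOMES and CXCR4 the DG point also lies lowest, but the difference did not pass, and DCX lies between -0.93 and -1.45 in all 4 regions.

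The difference was also read for 5 genes that fell in DG, picked from the progenitor and cell cycle lists or, for CXCR4, after its values were seen, and it passed for none of the 5 in limma. The progenitor list as a whole gave no such picture: its median step was -0.14 in DG, -0.10 in CA3, -0.14 in EC and 0.06 in Sub. EOMES was at -0.79 in DG and at -0.16, -0.00 and 0.13 in CA3, EC and Sub (difference -0.78, adjusted p = 0.164). EMX2 was at -0.54 against -0.27, 0.16 and 0.10 (difference -0.54, adjusted p = 0.164). CXCR4, the receptor of the chemokine CXCL12 that holds progenitors and young granule cells in place, read 6.41, 6.20, 7.44 and 7.04 in newborn DG and 5.97, 5.74, 5.88 and 5.77 at 6 months (fall 0.93, SE 0.184, adjusted p = 0.016), against -0.23, -0.19 and -0.01 (difference -0.79, adjusted p = 0.164). UBE2C was at -0.63 against -0.28, -0.25 and -0.12 (difference -0.42, adjusted p = 0.401). TFAP2C was at -1.08 against -0.45, -0.63 and -0.37 (difference -0.60, adjusted p = 0.249).

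The same step called 432 genes in CA3 (2.18%), 525 in EC (2.65%) and 601 in Sub (3.04%). These arrays held other tissue of the same animals, so shared calls are not independent replication. Leaving out 1 array gave 224 to 649, 229 to 663 and 263 to 593. Of the DG calls, 25 rises and 72 falls were called the same way in CA3, which is 30.9% of the DG calls and 22.5% of the CA3 calls. EC shared 20 rises and 58 falls (24.8% and 14.9%), and Sub 30 rises and 53 falls (26.4% and 13.8%). No DG call was called the opposite way in CA3, EC or Sub. All 3 shared 26 of the 314, and 153, of which 93 were rises, were called in none. TNC, DCX, DPYSL3, DPYSL5, SOX4 and SOX11 were called lower in all 4 regions: DCX was at -1.26 in DG and -0.93, -1.15 and -1.45 in CA3, EC and Sub. Among the rises PTGDS was at 1.22 in DG, 0.61 in CA3, 2.24 in Sub and -0.42 in EC, and MBP at 0.87, -0.33, 0.91 and 0.21. A gene called in DG alone is not thereby shown to differ.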

How the data were processed

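The values used were log2 signals deposited by the authors for each array and probe set; the algorithm that summarised the probes is not given in the sources used here. RNA was labelled in 2 amplification cycles per the labels' protocols. Array quartiles spread by 0.106 to 0.120, so all 80 arrays were quantile normalized together (limma 3.58.1, R 4.3.3). Of 54675 probe sets, 41091 had 1 gene symbol in the platform annotation, and the brightest of each symbol over 80 arrays stood for its gene (19775 genes, no filter on low signal). The step was fitted with lmFit and eBayes on the 16 DG arrays, 4 ages sharing 1 spread, with Benjamini-Hochberg adjustment over all genes. The difference between regions was fitted on DG minus the mean of CA3, EC and Sub of the same title number, taken as the animal; steps in CA3, EC and Sub were fitted like that of DG. SE is that of the contrast, SD that of 4 arrays, and the number of arrays limits the precision. The procedure was tested on simulated data with independent noise. That test required recovery only for steps of 1 log2, which are larger than most steps called here.

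Named were the 12 largest rises and falls (called, separate groups, higher mean above the median of 5.98, characterised), up to 5 genes of the difference test in each direction, and up to 5 members of each of 31 lists by smallest p; others are marked. The comparison and the lists were chosen with earlier results of these data known, so a list's direction is not independent evidence. Alternatives were other normalizations, fewer or more arrays, other probe sets, a filter on dim signal, the GAPDH ratio as covariate, a replicate block, other reference regions, and leaving out each array. Figures were drawn with matplotlib 3.10.9.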

Additional observations from a re-analysis of the deposited data

Results flagged for a closer look

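A difference between regions drew attention to 4 genes whose DG step departed from the mean step of CA3, EC and Sub: SH3GL2 by 0.91, KLF10 by -0.84, MGLL by 0.57 and EZH2 by -0.66, each tested in limma as a difference within title numbers (adjusted p = 0.0235).

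In 11 of 330 groups of 4 arrays (3.33%) 1 array stood far from the other 3, where chance gives about 1 in 20. Newborn array 15 was the one in 4 of them: DIO2, the enzyme that activates thyroid hormone, read 9.40 against 8.99 to 9.02, GABBR1 9.41 against 9.98 to 10.03, KCNC1, a potassium channel, 7.39 against 7.95 to 7.97, and TEF 8.87 against 9.29 to 9.31. PTGDS read 10.54 on newborn array 14 against 11.06 to 11.16. At 6 months array 11 was high for C1QA, a complement gene of microglia, at 6.37 against 6.05 to 6.10, and low for FKBP5, a glucocorticoid target, at 6.63 against 6.83 to 6.87. Array 10 was low for LY86, at 6.37 against 6.55 to 6.57, and for the imprinted gene NNAT, at 9.72 against 10.18 to 10.21. Array 12 was low for DNAJA1, a chaperone, at 7.5 against 7.79 to 7.84, and array 9 was high for SOX9, at 9.06 against 8.53 to 8.61.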

How the results depend on the processing

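The 314 calls of the DG step became 209 with the mean of all probe sets of a gene and 136 to 306 when 1 array was left out. With the 8 arrays fitted alone they were 240, of which 195 were among the 314. The calls lost there included GABBR1 (adjusted p = 0.0653), MYCN (0.0527), IGF2R (0.0873), CRH (0.0938) and SV2B (0.0963). SOX6 (0.0529), GRIK3 (0.114), SEMA6A (0.0521), JUN (0.0531) and GRB10 (0.0966) were lost too. The 4 calls of the difference became 0 as deposited, 15 with CA1 in the reference, 2 with EC and Sub alone, 5 with no replicate block (KLF10 and MGLL not among them) and 0 to 6 without 1 number. The step gave 224 to 649 calls in CA3, 229 to 663 in EC and 263 to 593 in Sub without 1 array, and 1158 in EC with the GAPDH ratio as covariate. With all 80 arrays and the title number as a replicate block the DG step gave 231 calls, 160 of them shared with the 314; the ages carry different numbers, so the block pairs regions and not ages. Same-number arrays of different regions correlated in their deviations at a mean of 0.13 (24 pairs, -0.50 to 0.48, 15 over 0.1), so the data do not settle whether the numbers mark animals, as the difference between regions takes them to do. Of 407 combinations of the 24 largest changes with the settings tried, 391 kept direction and call, 16 lost the call and 0 reversed. These 24 were chosen as called genes with separate groups, so leaving out 1 array could not reverse them. Fitting the 8 arrays alone or adding the replicate block changes the spread and not the step. The 0 reversals are therefore largely set by the choice of genes and settings. Signs turned for uncalled genes only, and the cause was not tested: with the mean of probe sets PROX1 (-0.24), LEF1 (-0.037), TSHZ2 (0.0011) and ATF3 (-0.010); with the probe set of highest variance PROX1 (-0.11), MEG3 (-0.15), LEF1 (-0.34), INSIG1 (-0.026) and PECAM1 (0.076); without newborn array 15 INSIG1 (-0.00096; 0.14 at most without 1 array) and HBB (0.044; -0.66 at the lowest); without 6-month array 10 TTR (-0.23; 0.84 at most). With 4 arrays per age, smaller steps than those called may have been missed.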

Other observations

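The genes below were chosen after their values were seen, and no explanation of them was tested. Over all genes 0.753% were called higher and 0.834% lower in limma, while 7.58% were higher and 5.55% lower at an unadjusted p below 0.05. ODC1, the first enzyme of polyamine synthesis, read 9.67, 9.71, 9.63 and 9.75 in newborn DG and 8.84, 8.76, 8.98 and 8.57 at 6 months, a fall of 0.90 (SE 0.0998, limma adjusted p = 0.000165) with groups far apart, and it went on to 8.39 at 1 year and 8.16 in adults. It was the 1 call among 6 polyamine genes (1 higher and 2 lower at an unadjusted p below 0.05). Of 4 nuclear factor one genes, transcription factors of glial and hippocampal development, 2 fell: NFIB by 0.88 (adjusted p = 0.0128) and NFIA by 0.48 (adjusted p = 0.0102). At an unadjusted p below 0.05, 1 of the 4 was higher and 3 were lower. KLF7, a factor of neurite growth, fell by 0.84 (adjusted p = 0.00391), from 8.26, 8.70, 8.63 and 8.12 to 7.49, 7.71, 7.66 and 7.47. GADD45A, a stress and growth arrest gene, fell by 0.60 (adjusted p = 0.00593).

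Among 7 polycomb genes EZH1, the paralog of EZH2, rose by 0.41 (adjusted p = 0.0333) while EZH2 fell. At an unadjusted p below 0.05, 1 of the 7 was higher and 2 were lower. Of 11 histone deacetylases HDAC11 and HDAC7 (0.35, adjusted p = 0.0344) were called higher and 0 lower (2 higher and 1 lower at an unadjusted p below 0.05). Of 13 clock output genes TEF and BHLHE40 were called higher and 0 lower (6 higher and 2 lower at an unadjusted p below 0.05). BHLHE40, a repressor of the clock, read 6.71, 6.89, 6.78 and 6.61 and then 7.54, 7.42, 7.30 and 7.33 (rise 0.65, adjusted p = 0.00726). Of 8 genes of Cajal-Retzius cells, the early neurons of the marginal zone that secrete reelin, NHLH2 alone was called. RELN (-1.34), NDNF (-0.79, adjusted p = 0.112) and CALB2 (-0.55, adjusted p = 0.230) did not pass, and TP73, a defining gene of these cells, was at 0.08. At an unadjusted p below 0.05, 0 of the 8 were higher and 4 lower.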
